A study of Arabidopsis thaliana with 20 samples.

Results

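Arabidopsis T87 cells kept at 4 °C for 36 h were compared with the same cells kept at 4 °C for 24 h, so the comparison covers the last 12 h of a long cold treatment. T87 is a suspension line of undifferentiated cells derived from the Columbia accession (Col-0). Of 20 arrays in the study, 8 were used: 4 from the 24 h series and 4 from the 36 h series, taken by their labels. Within each series 1 array was made before cordycepin (0 h) and 1 each after 4, 8 and 12 h with it. Cordycepin is an adenosine analogue that stops RNA chains from growing, so the later arrays show what is left of each transcript relative to the others. Both series grew in JPL medium with shaking at 22 °C under constant light, were moved to 4 °C and dimmer light a week after subculture, and differ in the labels only by hours of cold. Of the other 12 arrays (22 °C, and 6 h and 12 h at 4 °C), the 3 at 0 h of cordycepin were used to say where a gene stood earlier in the cold. Temperature and light changed together, so the parts of cold and dimmer light in any difference from the 22 °C array cannot be told apart.

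RNA levels came from Affymetrix ATH1 arrays, and the values are log2 of the deposited RMA intensity, which compares a probe set between arrays but not with another probe set. The unit of comparison is the pair: the 36 h and the 24 h array with the same hours of cordycepin. There are 4 pairs and 1 array per condition. The labels name no separate cultures, so a p-value measures the scatter of the 4 paired differences and not the spread between cultures. Hours of cold also run with time in culture, and the 2 cannot be told apart. In whole cultures, fewer cells of a kind and less RNA per cell cannot be told apart either. Array medians ran from 60.02 to 65.3 in the 24 h series and from 61.6 to 67.0 in the 36 h series. Here and below, genes "on the array" are those with a probe set that the platform annotation names with 1 gene. Probe sets named with several genes or with none were left out, so a gene group can lack members. Of 2 markers of differentiated tissue counted in this way, 0 passed the filter on low values, so the markers gave no check of cell kinds. The bacterial spike-in probe sets had mean differences between -0.06 and 0.04.

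Plants meet cold in stages. Within hours, calcium signals and stress transcription factors act, and the CBF factors then switch on the COR genes, whose hydrophilic proteins guard membranes and enzymes against freezing. Over days, cells adjust sugars, cell walls, respiration and the ribosome to growth at low temperature, and the early stress genes usually decline.

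The 8 h pair stood apart from the other 3. Across genes its differences had correlations of 0.19, 0.22 and 0.41 with those of the 0, 4 and 12 h pairs, where the other pairs had 0.50 to 0.71 with each other. These are descriptions across genes, which are not independent, of arrays normalised together. In the 24 h series, the 8 h array had a correlation of 0.927 with the array of 6 h of cold, against 0.882 to 0.886 for the other 3 arrays of that series. Whether this array holds the sample that its label names cannot be told from the files, and every mean difference and its error include it. Counts over all genes are therefore also given without this pair, as are the counts of the gene groups below where they change.

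Of 6961 genes tested, 155 (2.23%) were called higher and 263 (3.78%) lower at 36 h than at 24 h (limma over the 4 pairs, adjusted p under 0.05). The genes that rose included stress genes that had dipped at 24 h and genes that had stood below the 22 °C array. The genes that fell included 105 that were at least 2-fold higher on the 12 h array than on the 6 h array. Changes were modest: 41 of the 155 and 11 of the 263 reached 2-fold, and the largest mean differences were 1.94 up and -1.44 down. All 4 arrays of 36 h lay above all 4 of 24 h for 116 of the 155, and below them for 172 of the 263. Over all genes this separation was seen upward for 285 (4.09%) and downward for 387 (5.56%). Without the 8 h pair the counts were 323 (4.64%) higher and 428 (6.15%) lower and held 142 of the 155 and 247 of the 263. Without the 0 h pair they were 58 and 90, without the 4 h pair 38 and 39, and without the 12 h pair 25 and 32, each on 3 pairs. Of the 155, 13 passed the filter on low values (log2 5.94 on at least 2 of 20 arrays) only with the 36 h arrays, and of the 263, 3 passed only with the 24 h arrays, so a difference was built into these 16 genes. The 8 of them named below are AT1G71450, AT3G11930, AT3G51750, CHIL, RALFL32, UGT74D1, UGT84A1 and UGT76B1. Other named genes also read under 5.94 in 1 of the series, and the size of such a difference is uncertain. Centring on reference genes gave 109 higher and 340 lower, so 24.3% of the calls were upward there against 37.1% as reported.

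**Figure D1:**
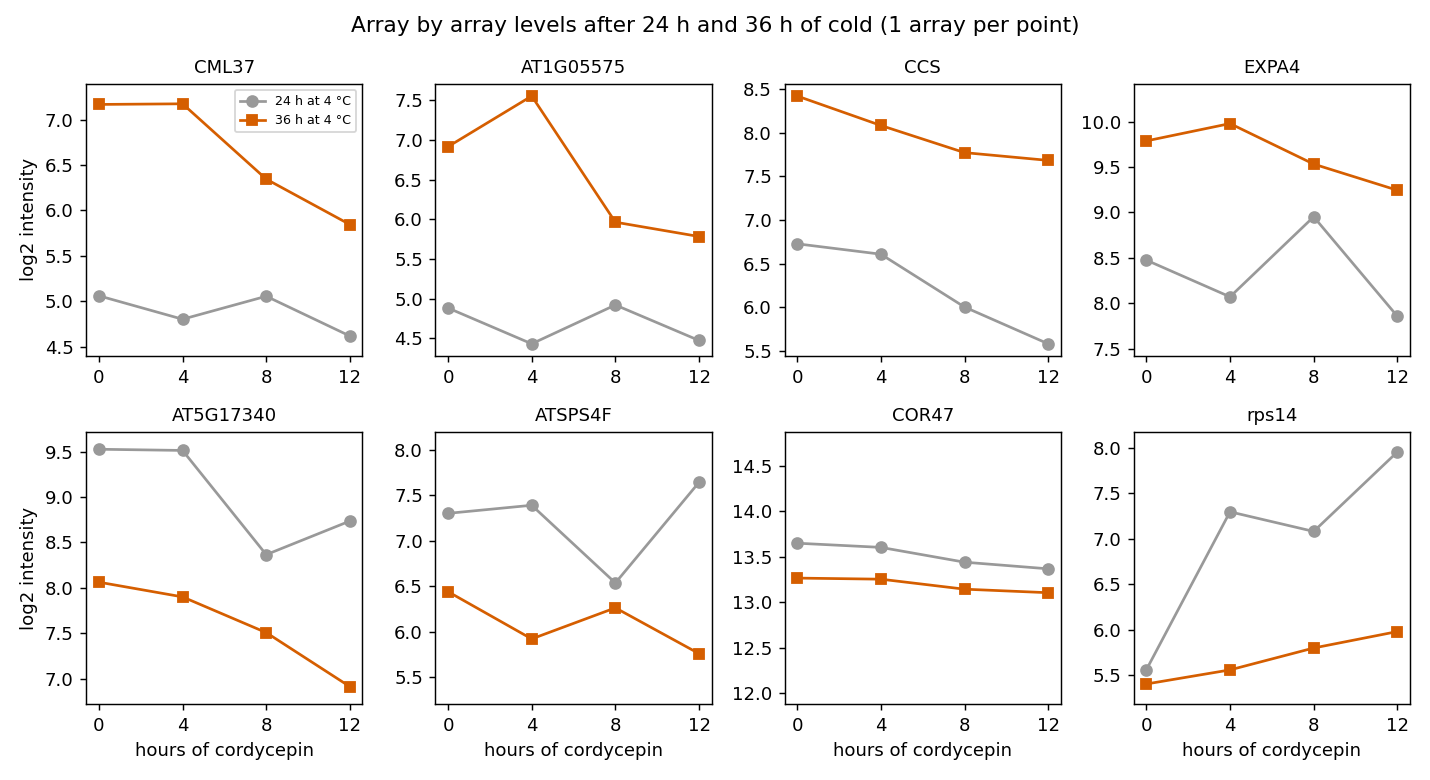
Log2 intensity (vertical axes, each spanning at least 3 log2 units) against hours of cordycepin for 8 genes, with 1 array per point, the 24 h series as grey circles and the 36 h series as orange squares. The 36 h arrays lie above the 24 h arrays for CML37, AT1G05575, CCS and EXPA4 and below them for AT5G17340, ATSPS4F and COR47, while rps14 starts at 5.56 and 5.40 and separates after cordycepin.

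A dip at 24 h preceded many of the rises. Of the 155 genes called higher, 73 were at least 0.5 log2 units lower on the 24 h array than on the 12 h array before cordycepin, 13 were that much higher and 69 lay between. Of the 155, 58 had been at least 2-fold above the 22 °C array at 12 h of cold, as had 585 of all 6961 genes. Of those 58, 44 had dipped in this way. These trajectories use the 24 h array that also enters the test, and they carry no test of their own. A low value on that array favours both a dip and a call. The share of all genes that dipped was not counted, so the dips do not set the 155 apart from other genes. CML37, a calmodulin-like calcium sensor of stress signalling on chromosome 5 (16942447 to 16943820, TAIR10.1), shows the path. Its 0 h level stood 4.40, 3.84, 1.60 and 3.71 log2 units above the 22 °C array at 6, 12, 24 and 36 h. On the 24 h arrays it read 5.06, 4.80, 5.05 and 4.62 at 0, 4, 8 and 12 h of cordycepin, and on the 36 h arrays 7.17, 7.17, 6.34 and 5.84. All 36 h arrays were above all 24 h arrays. The mean difference was 1.75 ± 0.20 (SE, n = 4 pairs; limma adjusted p = 0.00744).

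AT1G05575 followed the same course, at 2.84, 3.54, 0.86 and 2.90 above the 22 °C array. It read 4.88, 4.43, 4.92 and 4.47 on the 24 h arrays and 6.92, 7.56, 5.96 and 5.78 on the 36 h arrays. The groups did not overlap, and the difference was 1.88 ± 0.30 (limma adjusted p = 0.0157). AT1G71450, an AP2/ERF transcription factor gene, read 4.44 to 5.55 at 24 h and 5.98 to 7.04 at 36 h, a difference of 1.56 ± 0.26 (limma adjusted p = 0.0178). It passed the filter only with the 36 h arrays. RING-finger proteins attach ubiquitin to other proteins, and their genes were not counted as a family in either direction. Among the 15 largest rises were 2 such genes: AT5G47610 rose by 1.51 ± 0.33 and AT1G26800 by 1.40 ± 0.33. The last 2 rest on little at 8 h. There AT5G47610 read 6.35 and 6.44 in the 24 h and 36 h series, and AT1G26800 read 8.55 and 8.60. AT1G15010, AT5G07330, AT1G58420 and AT1G72800, a gene of the TIR-type immune receptor family, rose by 1.68, 1.74, 1.33 and 1.32 in that order, and each was higher on the 6 h array than on the 24 h array before cordycepin.

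Small heat shock proteins hold unfolding proteins in solution. Of their 9 genes on the array, all 9 were tested. Of these, 4 (44.4%) rose and 0 fell, beside 2.23% and 3.78% over all genes. The median mean difference was 0.85, beside 0.00 over all genes. AT1G53540 read 10.64, 10.21, 11.54 and 10.55 on the 24 h arrays and 11.88, 12.12, 11.92 and 11.99 on the 36 h arrays. The lowest 36 h array stood above the highest 24 h array, and the difference was 1.24 ± 0.20 (limma adjusted p = 0.0168). AT1G54050 rose by 1.20 ± 0.27, ATHSP22.0 by 0.98 ± 0.17 and AT5G51440 by 0.85 ± 0.18. The remaining members included the largest difference of the group: AT5G37670 had 1.91 ± 0.52 and did not pass (limma adjusted p = 0.0709). Its 8 h pair went the other way, with 9.38 at 24 h and 9.20 at 36 h. In the 8 h pair the median of the 9 genes was -0.01, against 0.92, 1.34 and 1.29 at 0, 4 and 12 h. Without that pair 8 of the 9 (88.9%) were called higher, beside 4.64% over all genes.

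Of 14 calcium sensor genes tested (calmodulins, calmodulin-like and related EF-hand proteins, of 31 on the array), 3 (21.4%) rose and 1 (7.14%) fell, with a median of 0.23. The shares over all genes were 2.23% and 3.78%. Without the 8 h pair 5 (35.7%) rose and 1 (7.14%) fell, beside 4.64% and 6.15% over all genes. Beside CML37, AT1G21550 rose by 1.16 ± 0.21 and AT2G41410 by 0.58 ± 0.12, while AT1G18210 fell by 0.42. AT1G21550 had been 2.70 above the 22 °C array at 6 h, was 0.28 below it at 24 h (log2 difference -0.28), and stood at 1.33 at 36 h. Of 14 stress transcription factor genes tested (of 23 on the array), only WRKY53 (7.14%) rose, beside 2.23% over all genes, and the other 13 were not called. WRKY53, a regulator of leaf senescence and defence, read 7.60, 6.47, 5.98 and 5.60 at 24 h and 8.93, 9.02, 6.64 and 6.29 at 36 h. Its groups overlap, since it declined with cordycepin in both series, and each pair differed upward (1.30 ± 0.28; limma adjusted p = 0.037). STZ, a zinc-finger repressor of cold and drought responses, had 0.48 ± 0.17 and was not called.

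Genes defined by their early response alone gave the same picture over more genes. Early cold-induced genes were those at least 2-fold above the 22 °C array on both the 6 h and the 12 h array, none of which enters the test. Of 213 such genes 204 were tested, 46 (22.5%) were called higher and 10 (4.9%) lower at 36 h, beside 2.23% and 3.78% over all genes. Their median difference was 0.33, with pair medians of 0.19, 0.64, -0.02 and 0.35 at 0, 4, 8 and 12 h. Without the 8 h pair, 82 were called higher and 10 lower. Their median level was 1.93, 2.20, 1.48 and 1.91 above 22 °C at 6, 12, 24 and 36 h. The direction depends on the 6 h array. Of the 585 genes at least 2-fold up on the 12 h array whatever their 6 h value, 58 (9.91%) were called higher and 97 (16.6%) lower. The shares over all genes were 2.23% and 3.78%, and the median of the 585 was -0.05.

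**Figure D2:**
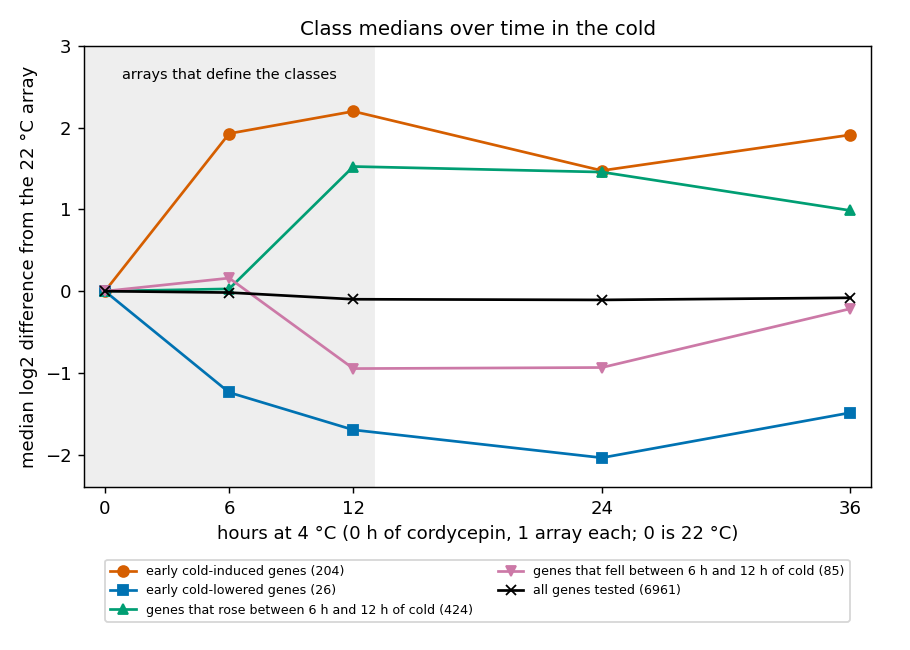
Median log2 difference from the 22 °C array (vertical axis) against hours at 4 °C before cordycepin, 1 array per time, for 4 classes defined on the 22 °C, 6 h and 12 h arrays and for all 6961 genes. Early cold-induced genes dip to 1.48 at 24 h and stand at 1.91 at 36 h, genes that rose between 6 h and 12 h go from 1.46 to 0.99, and both lowered classes come closer to 0.

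Few of the genes called higher had also climbed clearly from 12 h to 24 h. Of the 155 genes called higher, 13 were above their 12 h level by at least 0.5 log2 units at 24 h. Of those, 4 also stood at least 0.5 above 22 °C at 12 h: UGT74D1, AT3G51750, AT1G16850 and AT1G13930. The rule for these 4 was chosen after the values were seen. It leaves out genes that climbed with a smaller step from 12 h to 24 h, such as AT1G54410 below. UGT74D1 and AT3G51750 passed the filter only with the 36 h arrays, so a difference was built into these 2. UGT74D1, a glucosyltransferase that acts on auxins, stood 0.11, 0.62, 1.79 and 2.86 above the 22 °C array at 6, 12, 24 and 36 h. It read 5.74, 5.33, 5.46 and 5.50 on the 24 h arrays and 6.81, 6.83, 6.75 and 6.27 on the 36 h arrays, with no overlap (1.16 ± 0.12; limma adjusted p = 0.00662). AT3G51750 went through 0.37, 0.97 and 1.78 to 3.47, and AT1G16850 through 0.20, 3.25 and 4.63 to 5.21. Among the late embryogenesis abundant (LEA) and dehydrin genes outside the CBF list, 7 of 23 were tested. Of these, 2 (28.6%) rose and 2 (28.6%) fell, beside 2.23% and 3.78% over all genes. AT1G54410, a small dehydrin, rose by 0.37 ± 0.06 and stood at 0.27, 1.83, 2.16 and 2.67 above 22 °C. AT2G23110 rose by 1.14 ± 0.19 from 3.02 to 4.50 above 22 °C, a rise that came after a dip from 4.15 at 6 h. Its neighbour on chromosome 2, AT2G23120, fell by 0.27 and AT4G38410 by 0.46.

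Flavonoid and phenylpropanoid genes make sunscreen pigments, lignin units and related phenolics. Of 9 on the array 7 were tested, and 4 (57.1%) rose and 1 (14.3%) fell, beside 2.23% and 3.78% over all genes. Of the 4, CHIL and UGT84A1 passed the filter only with the 36 h arrays, so the count does not speak for the group. CHIL, which encodes a non-catalytic chalcone isomerase-like helper of flavonoid synthesis on chromosome 5 (1563286 to 1565324), read 4.79, 4.64, 4.97 and 5.18 on the 24 h arrays and 6.30, 6.94, 7.18 and 6.05 on the 36 h arrays. Every 36 h array was above every 24 h array (1.72 ± 0.22; limma adjusted p = 0.0114). It had not been above 22 °C at 6 h or 12 h (-0.16 and -0.36) and stood at 0.39 at 24 h and 1.90 at 36 h. AT1G06000, which adds rhamnose to flavonols, rose by 1.13 ± 0.17. It lay between 6.98 and 7.30 on the 24 h arrays and between 7.66 and 8.61 on the 36 h arrays. UGT84A1, a glucosyltransferase for hydroxycinnamic acids, read 4.94 to 5.003 at 24 h and 6.51, 6.49, 5.75 and 5.36 at 36 h (1.04 ± 0.19; limma adjusted p = 0.023). Only 2 arrays of the 20, both at 36 h, reached the filter level of 5.94, so its 24 h signal is not established and the size of the difference is uncertain. ALDH2C4, which makes ferulic and sinapic acid, rose by 0.40 ± 0.07. HCT, which leads toward lignin, fell by 0.51.

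Some of the genes that rose came back toward their 22 °C level. Of 196 genes at least 2-fold below 22 °C on the 12 h array, 20 (10.2%) were called higher and 0 lower, beside 2.23% and 3.78% over all genes. CCS, the copper chaperone of superoxide dismutase on chromosome 1 (4267074 to 4268982), had the lowest adjusted p of the genes named here. It read 6.73, 6.61, 6.00 and 5.58 on the 24 h arrays and 8.42, 8.08, 7.77 and 7.68 on the 36 h arrays, a difference of 1.76 ± 0.10 (limma adjusted p = 0.00125). Its level against 22 °C was -0.37, -2.55, -1.60 and 0.09 at 6, 12, 24 and 36 h. EXPA4, an expansin that loosens cell walls, read 8.47, 8.07, 8.95 and 7.86 at 24 h and 9.79, 9.98, 9.53 and 9.24 at 36 h (1.30 ± 0.18; limma adjusted p = 0.0114). At -1.33, -2.66, -4.16 and -2.85 against 22 °C it remained far under its warm level. AT3G29970 stood at -3.89 on the 24 h array and at -1.38 on the 36 h array, and GH9C2, an endoglucanase gene, at -3.02 and -2.27. Early cold-lowered genes as a class (26 tested of 30) had 4 (15.4%) called higher and 0 lower, with a median of 0.22, and 7 higher and 1 lower without the 8 h pair (4.64% and 6.15% over all genes). AT3G11930, a universal stress protein family gene, had the largest rise of all genes called (1.94 ± 0.17; limma adjusted p = 0.00305), and it was near its warm level until 24 h (0.10, -0.50 and -0.04) and 2.18 above it at 36 h. RALFL32, a RALF-like signal peptide gene, had a like course: -0.22 at 24 h and 1.45 at 36 h, with a difference of 1.32 ± 0.12. AT3G11930 and RALFL32 passed the filter only with the 36 h arrays, so a difference was built into both.

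Many of the genes that fell had come up late. The 263 called lower had a median level of -0.04 against 22 °C at 6 h, 0.70 at 12 h, 1.04 at 24 h and 0.42 at 36 h. At 12 h, 97 (36.9%) were at least 2-fold up, 0 were at least 2-fold down and 166 (63.1%) were within 2-fold of 22 °C. Over all 6961 genes, 585 were up, 196 were down and 6180 were within 2-fold. Genes that rose at least 2-fold between the 6 h and 12 h arrays, a class added after the data were seen, numbered 468, of which 424 were tested. Of these, 105 (24.8%) fell and 15 (3.54%) rose between 24 h and 36 h, beside 3.78% and 2.23% over all genes, and 135 fell without the 8 h pair. Their median difference was -0.18, and it was -0.45 in the 0 h pair and -0.03 in the 8 h pair. Of the 85 tested genes that had fallen at least 2-fold from 6 h to 12 h (101 in all), 14 (16.5%) rose and 0 fell, and 45 rose without the 8 h pair.

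AT5G17340, on chromosome 5 (5715624 to 5716268), fell most. It read 9.53, 9.51, 8.37 and 8.74 on the 24 h arrays and 8.06, 7.90, 7.51 and 6.91 on the 36 h arrays, without overlap (-1.44 ± 0.14; limma adjusted p = 0.00457). It had stood 3.70 above 22 °C at 12 h, 2.42 at 24 h and 0.96 at 36 h. AT1G67600 fell by 1.32 ± 0.18, from 2.63 above 22 °C at 12 h to 0.23 at 36 h.

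AT5G51830, a fructokinase gene, read 11.37, 11.41, 10.84 and 11.01 on the 24 h arrays and 9.87, 9.98, 9.92 and 10.02 on the 36 h arrays. The 36 h arrays stayed close together and under all of the 24 h arrays (-1.21 ± 0.10; limma adjusted p = 0.00305). ATSPS4F, a sucrose phosphate synthase of the pathway to sucrose, a sugar that builds up in cold plants, read 7.30, 7.39, 6.54 and 7.64 at 24 h and 6.44, 5.92, 6.26 and 5.76 at 36 h (-1.12 ± 0.23; limma adjusted p = 0.0314). It remained 1.98 above 22 °C. The list of sugar genes did not hold AT5G51830. Of its 5 tested genes ATSPS4F (20%) was the only one called, beside 3.78% lower over all genes. SWEET2, a sugar transporter gene of the list, had -0.22 ± 0.10. Other large falls were LCR68, a defensin-like gene (-1.06 ± 0.10; limma adjusted p = 0.00398), AT2G04050, a MATE transporter gene (-1.05 ± 0.16), AT5G43450, an oxygenase family gene (-1.01 ± 0.20), AT3G04010, a glycosyl hydrolase gene, AT2G40530, AT1G63840 and AT1G52470 (between -1.03 and -0.99).

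The COR genes had small differences, all below 0. Of the 7 genes of the CBF list, all 7 were tested and the median was -0.23. Of these, 0 rose and 2 (28.6%) fell, beside 2.23% and 3.78% over all genes. COR47, a dehydrin of the CBF regulon on chromosome 1 (7084409 to 7086873), read 13.65, 13.61, 13.44 and 13.37 on the 24 h arrays and 13.27, 13.26, 13.14 and 13.11 on the 36 h arrays. The groups did not overlap, and the fall was small and even (-0.32 ± 0.04; limma adjusted p = 0.00715). COR27, a cold-regulated gene tied to the clock, fell by 0.50 ± 0.11 (limma adjusted p = 0.0417), with 10.83 and 10.81 in the 8 h pair. COR15A, whose product shields chloroplast membranes during freezing, had -0.23 ± 0.08 and did not pass (limma adjusted p = 0.124). AT4G33980 had -0.45 ± 0.13 (limma adjusted p = 0.0787). GI, a clock gene, had -0.07 ± 0.08 (limma adjusted p = 0.633). Of the 4 tested clock and light signalling genes, 0 rose and 2 (50%) fell, beside 2.23% and 3.78% over all genes. They were FHL and TIC, which fell by 0.46 and 0.39.

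**Figure D3:**
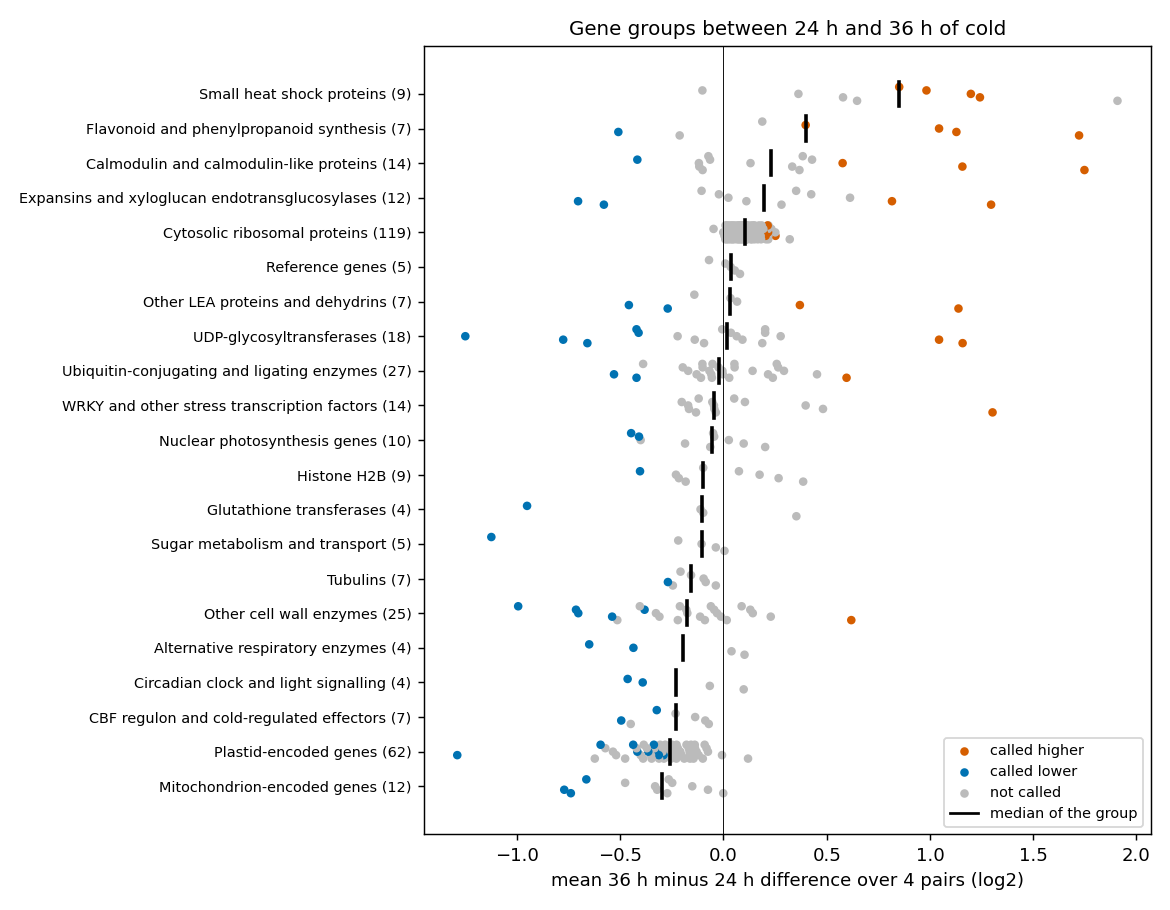
Mean 36 h minus 24 h difference over the 4 pairs (log2, horizontal axis) for each tested gene of 21 groups, with group sizes in brackets, genes called higher in orange, genes called lower in blue, and the group median as a black bar. Small heat shock proteins have the highest median (0.85) and mitochondrion-encoded genes the lowest (-0.30), and ribosomal proteins form a narrow band around 0.10.

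Wall genes moved both ways. Expansins and xyloglucan endotransglucosylases let walls stretch by loosening or rejoining xyloglucan. Of their 12 tested genes (of 28 on the array) 2 (16.7%) rose and 2 (16.7%) fell, beside 2.23% and 3.78% over all genes. Without the 8 h pair 3 (25%) rose and 1 (8.33%) fell, beside 4.64% and 6.15% over all genes. XTH18 rose by 0.82 ± 0.13, with 8.91 to 9.69 at 24 h and 10.03 to 10.47 at 36 h, and stood 4.80 above 22 °C. EXGT-A3, of the same enzyme family, fell by 0.70 ± 0.06 (limma adjusted p = 0.00353), with 12.52, 12.37, 11.78 and 11.65 on the 24 h arrays and 11.59, 11.82, 11.15 and 10.92 on the 36 h arrays. Its values declined with cordycepin in both series, so the groups overlap while each pair differs downward. EXLA2 fell by 0.58. Of 25 other wall genes tested (of 52), 5 (20%) fell and 1 (4%) rose, beside 3.78% and 2.23% over all genes, with a median of -0.175. Without the 8 h pair 7 (28%) fell and 1 (4%) rose, beside 6.15% and 4.64% over all genes. The 5 were IRX15-L of xylan synthesis (-0.99 ± 0.13), the pectin methylesterase gene ATPMEPCRB (-0.71 ± 0.12), CSLC5 of the xyloglucan glucan synthase family (-0.70 ± 0.12), SKU5 (-0.54 ± 0.06) and COB, which guides cellulose deposition (-0.38 ± 0.08). GH9C2 was the member that rose.

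UDP-glycosyltransferases attach sugars to hormones and other small molecules. Of 18 tested genes (of 49), 2 (11.1%) rose and 5 (27.8%) fell, beside 2.23% and 3.78% over all genes. The 2 of this list that rose, UGT74D1 and UGT84A1, passed the filter only with the 36 h arrays. AT1G06000, the flavonol rhamnose gene above, also attaches a sugar but was not in this list. It rose by 1.13 ± 0.17 and lay between 6.98 and 7.30 on the 24 h arrays, over the filter level of 5.94. UGT76B1, which glucosylates salicylic and isoleucic acid and passed only with the 24 h arrays, read 6.59, 6.45, 5.45 and 5.09 on the 24 h arrays and 4.76, 4.66, 4.58 and 4.58 on the 36 h arrays. It fell by 1.25 ± 0.22 (limma adjusted p = 0.0223) and had stood 2.34 above 22 °C at 24 h. GT72B1, which acts on lignin precursors, fell by 0.78 ± 0.16, UGT87A2 by 0.66, UGT88A1 by 0.42 and UGT71C4 by 0.41. Of 4 glutathione transferases only GSTU25 (25%) was called, and it fell (-0.95 ± 0.15, limma adjusted p = 0.0162), beside 3.78% over all genes. Of 4 alternative respiratory genes, whose enzymes bypass proton-pumping steps of the mitochondrial chain, 0 rose and 2 (50%) fell, beside 2.23% and 3.78% over all genes. They were the external NAD(P)H dehydrogenase genes NDB2 and NDB4, which fell by 0.65 ± 0.10 and 0.44 ± 0.07. NDB2 had been 1.08, 2.11 and 1.19 above 22 °C at 12, 24 and 36 h.

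Cytosolic ribosomal protein genes, which build the protein-making machinery, had small differences that lay nearly all above 0. Of 119 tested (of 131), 117 had a mean difference above 0, and the median was 0.10, beside 0.00 over all genes. Only 5 (4.2%) were called higher and 0 lower, beside 2.23% and 3.78% over all genes. Without the 8 h pair 17 (14.3%) were called higher and 0 lower, beside 4.64% and 6.15%. AT4G10450 rose by 0.25 ± 0.05 (limma adjusted p = 0.0232). It read 10.72 to 11.01 at 24 h and 11.01 to 11.21 at 36 h. The group's median against 22 °C was -0.41 at 12 h, -0.34 at 24 h and -0.18 at 36 h.

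Genes encoded in the organelles, for photosynthesis, respiration and organelle ribosomes, differed mainly on the arrays with cordycepin. Of 62 plastid-encoded genes tested (of 69), 9 (14.5%) fell and 0 rose, beside 3.78% and 2.23% over all genes, with a median of -0.26, and 10 fell without the 8 h pair. By pair the median was 0.00 at 0 h, -0.23 at 4 h, -0.45 at 8 h and -0.29 at 12 h. The gene rps14, for a plastid ribosomal protein, read 5.56, 7.30, 7.08 and 7.96 on the 24 h arrays and 5.40, 5.56, 5.80 and 5.98 on the 36 h arrays. Its relative level climbed with cordycepin at 24 h and much less at 36 h (-1.29 ± 0.26; limma adjusted p = 0.0306). Likewise psbA, for a core protein of photosystem II, read 8.06, 9.80, 9.83 and 9.79 at 24 h and 8.32, 8.53, 9.03 and 9.33 at 36 h, but with a difference of -0.57 ± 0.21 it was not called (limma adjusted p = 0.14). Of 12 mitochondrion-encoded genes tested (of 16), 3 (25%) fell (cox2, nad4L and ccb452), beside 3.78% over all genes. Without the 8 h pair 2 (16.7%) fell, beside 6.15% over all genes, and nad4L did not (limma adjusted p = 0.0638). The median by pair was 0.14, -0.14, -0.69 and -0.695. All of these levels are relative, since the arrays were normalised to each other. Of 10 nuclear photosynthesis genes, 0 rose and 2 (20%) fell, beside 2.23% and 3.78% over all genes. The 2 were CaS, a thylakoid calcium-sensing protein gene (-0.41 ± 0.06), and HCF101, for an iron-sulfur scaffold of photosystem I (-0.45 ± 0.08). Without the 8 h pair 1 (10%), LHCB4.2, rose and 2 (20%) fell, beside 4.64% and 6.15% over all genes.

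**Figure D4:**
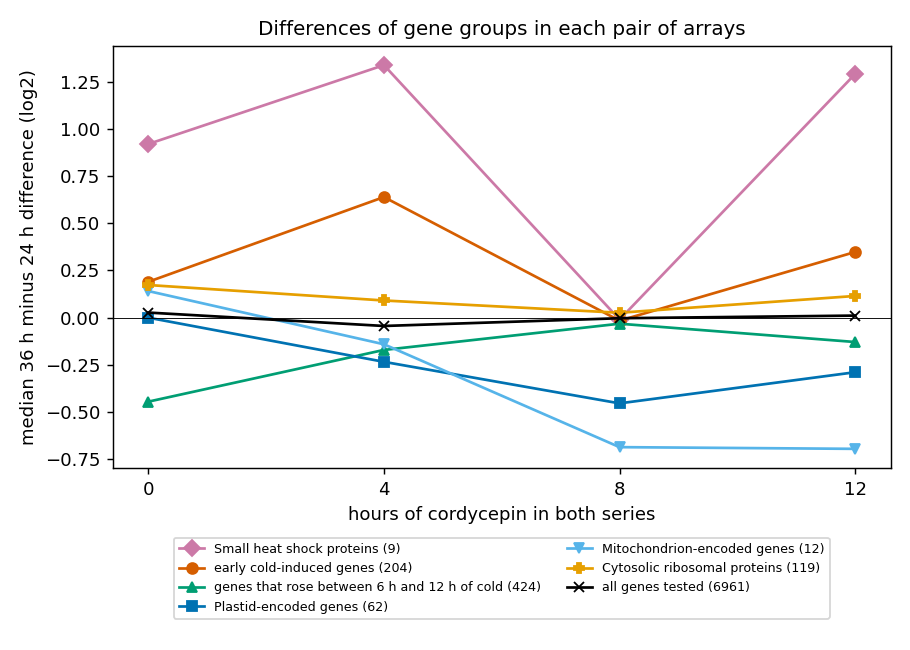
Median 36 h minus 24 h difference (log2, vertical axis) of 6 gene groups and of all genes in each pair of arrays, against the hours of cordycepin of the pair. Small heat shock protein genes and early cold-induced genes are at about 0 in the 8 h pair, and organelle-encoded genes start at 0.00 and 0.14 and end at -0.29 and -0.695.

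A test of whether the difference changed with hours of cordycepin called 0 genes (limma interaction, 2 residual degrees of freedom), and 443 (6.36%) had an unadjusted p under 0.05. The organelle trend is therefore a description of medians.

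The 0 h arrays alone, with 1 array on each side and no test, show levels before transcription was stopped. There 80 genes (1.15%) stood 2-fold or more above their 24 h level at 36 h, and 44 (0.632%) stood as far below it. Of the 80, 46 had the same sign in the other 3 pairs, and their median difference by pair was 1.495 at 0 h, 1.79 at 4 h, 0.15 at 8 h and 0.845 at 12 h. The later 3 values come from arrays that did not choose these genes. Of the 44, 31 kept their sign, with -1.23, -0.79, -0.42 and -0.31. The 4 h pair had the most genes at least 2-fold higher (126), and the 8 h pair the fewest (19).

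**Figure D5:**
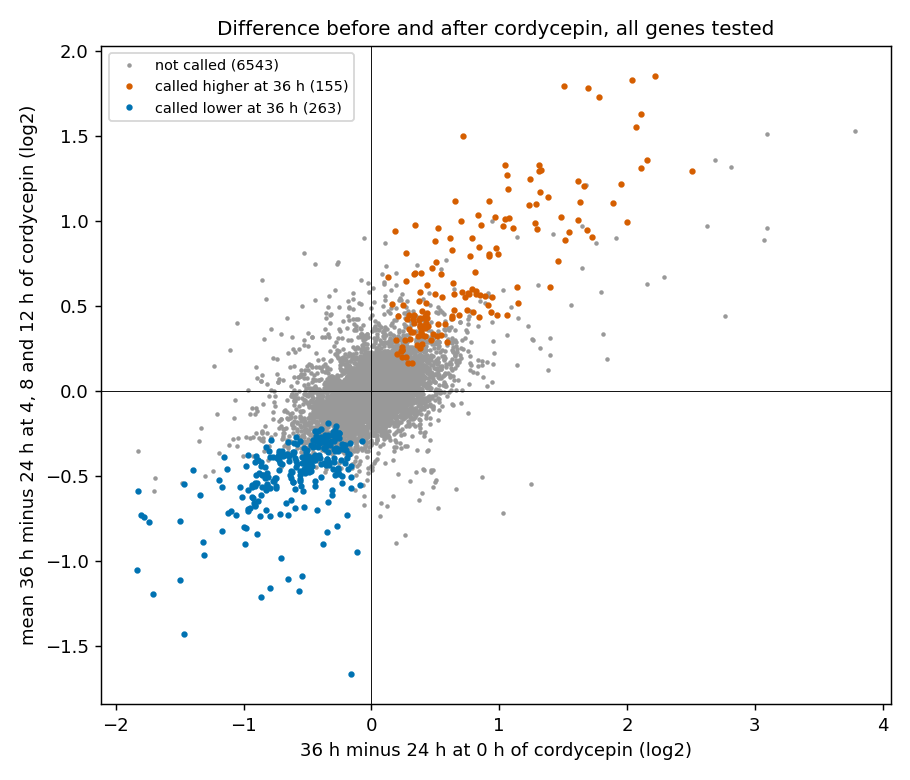
Difference at 0 h of cordycepin (log2, horizontal axis) against the mean difference at 4, 8 and 12 h (log2, vertical axis) for all 6961 genes, with the 155 called higher in orange and the 263 called lower in blue. Called genes had the same sign in all 4 pairs, which also made the calls, so their place in the quadrants of equal sign was fixed by selection. Some uncalled genes with large 0 h differences have smaller later ones.

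A last comparison held the hours at 4 °C equal. Cells of the 24 h series with 12 h of cordycepin had spent the same 36 h in the cold as the 0 h array of the 36 h series, but with cordycepin in the last 12 h. The array without cordycepin was at least 2-fold higher for 274 genes (3.94%) and lower for 33 (0.474%), with 1 array on each side and no test. These levels are relative, since the arrays were normalised to each other, so the counts are not of RNA amounts. Among the 155 genes called higher, 65 were at least 2-fold higher here too, and the median was 0.72. Among the 263 called lower, 7 were at least 2-fold lower and 6 higher, with a median of -0.28. Both arrays enter the 4 pairs, so these values do not stand apart from the calls. For CCS the array without cordycepin was higher by 2.84 and for WRKY53 by 3.325, while for AT5G51830 it was lower by 1.14 (log2 difference -1.14).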

How the data were processed

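The deposited intensity of each probe set is on a linear scale and was summarised by the authors with RMA in the affy package, per the submitters' processing notes, with no version given in the sources used here. Log2 was taken. The platform table names 13513 of 22810 probe sets with 1 gene and 503 with several; 13436 matched TAIR10.1 by Entrez identifier. A probe set was kept where 2 or more of the 20 arrays reached the median of the table (61.39). The brightest probe set of a gene, chosen before this filter, represented it. A gene whose brightest probe set failed was left out, leaving 6961 of 13355 genes. The fit was limma 3.58.1 in R 4.3.3 (lmFit, eBayes with trend) on the 8 arrays, with hours of cordycepin as block and 3 residual degrees of freedom, two-sided, Benjamini-Hochberg adjusted over all genes at 0.05. The pairing comes from equal hours of cordycepin. An exact test over 4 pairs cannot go below p = 0.125. Fits were tested on simulated data. Tables and plots used Python 3.11.15, pandas 2.3.3 and matplotlib 3.10.9.

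Named genes are the 15 largest changes each way among called genes with the same sign in all 4 pairs, 5 each way per cold class, up to 4 members of each list with at least 3 tested genes, COR15A, COR47, GI and reference genes. AT1G18210, UGT88A1, UGT71C4, AT3G51750, AT1G16850, AT1G13930, SKU5, COB, EXLA2, ALDH2C4, UGT87A2 and AT5G51440 were chosen after their values were seen. Members and lists were chosen with earlier results of these data known.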

Additional observations from a re-analysis of the deposited data

Results flagged for a closer look

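Among 111 named genes, the 4 paired differences were checked for a value far from the other 3, and 3 genes had one, where chance flags about 1 in 20. AT2G23110, a LEA gene, had 0.288 in the 8 h pair and 1.36 to 1.49 in the others (1.365 the lowest). AT2G41410, a calmodulin-like gene, had 1.129 in the 4 h pair against 0.34 to 0.438. TUB1, a tubulin gene, had -0.458 in the 4 h pair against -0.196 to -0.142.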

How the results depend on the processing

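Counts were 155 higher and 263 lower as reported. They were 102 higher with a 60th percentile filter, 162 lower without the variance trend, 63 and 82 with no replicate block (hours of cordycepin left out of the fit), 58 and 90 without the 0 h arrays, 324 and 535 over all probe sets, and 41 and 11 with a 2-fold minimum. Leaving out each pair in turn gave 25 to 323 higher and 32 to 428 lower, the lowest without the 12 h pair and the highest without the 8 h pair. All 155 and all 263 had the same sign in all 4 pairs, so their sign could not change when a pair was left out. Of 111 named genes, 70 of them called, 50 lost their call without the 12 h pair, 44 without the 4 h pair, 37 without the 0 h pair, 1 without the 8 h pair and 36 with no block. Genes whose difference changed with hours of cordycepin numbered 0 to 98 when a pair was left out, with 98 without the 4 h pair. At 0 h alone, the 80 and 44 became 33 and 19 with the stricter filter, 152 and 110 over probe sets, and 219 and 265 at 1.5-fold. The median of early cold-induced genes turned from 0.327 to -0.048 when the class came from the 12 h array alone, and ranged from 0.199 to 0.386 without a pair. That of early cold-lowered genes was 0.496 with a 4-fold class, and 0.201 to 0.215 without a pair. Genes that rose from 6 h to 12 h had -0.445 at 0 h alone and -0.228 to -0.099 without a pair. Genes that fell had 1.433 with a 4-fold class and 0.293 to 0.562 without a pair. The causes were not tested. The classes of genes that rose or fell from 6 h to 12 h, the comparison at equal hours in the cold, and the counts without the 8 h pair were chosen after seeing the data. With 1 array per condition, the number of arrays limits the precision.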

Other observations

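Tubulin, histone H2B and ubiquitin enzyme genes had few calls over the same 12 h. Of 7 tubulin genes, all below 0, 1 (14.3%) was called, beside 3.78% lower over all genes: TUA6 fell by 0.27 ± 0.06. Of 9 histone H2B genes, 1 (11.1%) was called: AT2G28720 fell by 0.40, and HTB2 had 0.27 ± 0.12 without a call. Of 27 ubiquitin-conjugating and ligating enzyme genes, UBC16 rose by 0.60 ± 0.08 (limma adjusted p = 0.0114), while PUB43 and UBC19 fell by 0.53 and 0.42. These calls were 3.7% higher and 7.41% lower, beside 2.23% and 3.78% over all genes. PUB19 of this list, 3.46 above 22 °C at 6 h, had 0.45 ± 0.21 and was not called. The RING-finger genes AT5G47610 and AT1G26800 were not in this list. Without the 8 h pair the calls were 2 (28.6%) lower for tubulins, and 2 (22.2%) higher and 1 (11.1%) lower for H2B. For the ubiquitin genes they were 1 (3.7%) higher and 3 (11.1%) lower, beside 4.64% and 6.15% over all genes. UBC16 read 7.11, 7.32, 7.16 and 6.93 on the 24 h arrays and 7.85, 7.82, 7.58 and 7.66 on the 36 h arrays, with no overlap. The 5 reference genes lay between -0.07 and 0.08, and 0 were called.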
